A study of Mus musculus with 6 samples.

Results

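The genes described here are 33 markers and effectors of microglia, tissue macrophages and complement, chosen by their symbols from the 52513 genes of a spinal cord RNA table. They fall into 5 roles. There are 10 genes of homeostatic microglia and 7 shared by microglia and other myeloid cells. The rest are 6 of activation and phagocytosis, 4 of perivascular macrophages and 6 of complement. The symbols matched 34 rows, because Itgam named a pair of them. Of the 33 genes, 28 reached the level set for testing (1 FPKM or more in 3 or more of the 6 libraries). The other 5, Cd163, Lyve1, C3ar1, C5ar1 and Cst7, were taken from a fit of that model to all genes above 0.

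The morphine group were mice with the genotype label WT, given the drug into the intrathecal space (10 µg in 10 µL) for 7 days. The saline group, also WT, had intrathecal saline over the same 7 days, so both groups carried the injections. Each group had 3 libraries of total RNA from lumbar segments L4-L5, made with a strand-marking kit. Age and sex are unknown here. The libraries are described as mor-1-2-3, mor-4-5-6 and mor-7-8 in the morphine group and control-1-2-3, control-4-5-6 and control-7-8 in the saline group. If these numbers are animals, each library is a pool, and every SD and p then describes the spread between pools rather than between animals. The series title sets the comparison in the context of morphine tolerance, and here it asks whether transcripts of the cord's immune cells differed after the drug.

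Microglia are the resident macrophages of the spinal cord parenchyma. They depend on signalling through the receptor CSF1R, and in the healthy cord they carry a set of sensing receptors such as CX3CR1 and P2RY12 that is typically lost when they become activated after nerve injury. Perivascular and meningeal macrophages are separate cells at the borders of the tissue, marked by scavenger receptors. Complement is a cascade of plasma-type proteins in which C1q starts the classical pathway and C3 is the step where the pathways meet. In the cord, microglia make most of the C1q.

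Levels are FPKM, in which fragments are divided by transcript length and by the mapped total of the library, and differences are morphine minus saline on the log2(FPKM + 1) scale, tested with limma across all 14614 genes that passed the filter. The depth estimated from the steps of low FPKM values was 17.8 to 19.9 M fragments in the morphine libraries and 21.2 to 26.1 M in the saline libraries, and 22754 to 23492 genes were above 0 in a library. Markers of motor neurons split the libraries across the groups. Their mean log2 level was 2.29, 3.57 and 1.45 in morphine 1, 2 and 3, and 3.69, 3.57 and 1.88 in saline 1, 2 and 3. Morphine 2, saline 1 and saline 2 were therefore the libraries high in motor neuron RNA. Defining markers of microglia were present in all 6 libraries, with Tmem119, P2ry12 and Cx3cr1 at 10.4 FPKM or more, whereas Ccr2, a receptor of blood monocytes, was at 0.08 FPKM or less and Cd8a, of cytotoxic T cells, was listed at 0.

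Promoter sequence was available for 24 of the 33 genes. It is shown for 1 gene of each role, because a motif of the transcription factor PU.1, which is encoded by the member Spi1 and is required for microglia and macrophages to form, can be read in it. The windows run from 250 bases before to 50 bases after the annotated start, 5′ to 3′ on the gene's own strand, from RefSeq on GRCm38.p6, and capitals mark GAGGAAG or, where the match lies on the other strand, its reverse complement CTTCCTC. The windows are chr3:59210833-59211132 on the minus strand for P2ry13, chr7:128062390-128062689 on the plus strand for Itgam, chr17:48346151-48346450 on the plus strand for Trem2, chr2:14229164-14229463 on the plus strand for Mrc1 and chr4:136892865-136893164 on the minus strand for C1qc.
P2ry13: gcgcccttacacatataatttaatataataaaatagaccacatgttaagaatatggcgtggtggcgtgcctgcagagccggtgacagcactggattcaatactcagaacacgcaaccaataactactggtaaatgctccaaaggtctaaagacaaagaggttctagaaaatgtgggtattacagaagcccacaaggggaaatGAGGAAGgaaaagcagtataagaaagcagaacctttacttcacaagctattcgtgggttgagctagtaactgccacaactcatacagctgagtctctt
Itgam: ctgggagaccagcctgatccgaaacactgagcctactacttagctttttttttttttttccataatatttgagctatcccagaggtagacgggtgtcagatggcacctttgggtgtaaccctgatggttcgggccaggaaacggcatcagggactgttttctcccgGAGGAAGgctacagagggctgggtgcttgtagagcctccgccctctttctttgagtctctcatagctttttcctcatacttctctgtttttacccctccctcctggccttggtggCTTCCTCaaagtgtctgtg
Trem2: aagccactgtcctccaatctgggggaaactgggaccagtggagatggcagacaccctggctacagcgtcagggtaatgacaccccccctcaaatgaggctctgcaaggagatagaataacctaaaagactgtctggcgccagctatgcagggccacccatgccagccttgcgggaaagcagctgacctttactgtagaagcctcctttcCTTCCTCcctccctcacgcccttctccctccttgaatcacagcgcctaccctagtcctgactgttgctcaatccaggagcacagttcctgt
Mrc1: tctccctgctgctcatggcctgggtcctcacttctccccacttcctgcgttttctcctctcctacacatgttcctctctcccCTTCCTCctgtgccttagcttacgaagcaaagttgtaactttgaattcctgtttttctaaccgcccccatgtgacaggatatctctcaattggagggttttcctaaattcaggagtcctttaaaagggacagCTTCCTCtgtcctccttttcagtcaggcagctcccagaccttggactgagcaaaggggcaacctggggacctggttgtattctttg
C1qc: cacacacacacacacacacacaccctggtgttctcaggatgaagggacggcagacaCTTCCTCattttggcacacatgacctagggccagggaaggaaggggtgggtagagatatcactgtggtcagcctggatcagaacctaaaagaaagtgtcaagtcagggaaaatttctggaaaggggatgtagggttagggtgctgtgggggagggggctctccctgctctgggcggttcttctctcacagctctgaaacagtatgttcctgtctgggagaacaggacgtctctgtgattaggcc

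GAGGAAG, searched on both strands, was present in 10 of the 24 member promoters (41.7%): those of P2ry13, Fcrls, Itgam, Laptm5, Ctss, Trem2, Spp1, Mrc1, Pf4 and C1qc. Of all 27025 promoter windows of the same length, 13.5% held it. A composite motif of PU.1-type and IRF factors, searched in the same way, was in 1 of the 24 (4.2%), that of Cd68, against 2.8% of all windows. A match of letters describes the window and does not show that a factor binds there.

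Across the 28 tested members no gene passed the test, against 1.51% of all tested genes (0.944% higher and 0.561% lower after morphine). At an unadjusted p under 0.05 the count was 1 of 28 (3.57%), the gene Aif1, higher after morphine, while 22.3% of all tested genes were under it (11.2% higher and 11.1% lower). The 3 morphine values and the 3 saline values did not overlap for 1 of the 28 (3.57%), the gene Pf4, against 28.7% of all tested genes. The median log2 difference of the members was -0.07 and that of all tested genes was -0.015. Differences were below 0 for 19 of the 28 members (67.9%), beside 53.1% of all tested genes. None of the 28 differed by more than 0.5 on the log2 scale, a size that 4.09% of all genes passed. In bulk tissue such as this, fewer cells of a type and less RNA per cell cannot be told apart, for these values and all that follow.

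The intervals say how large a difference the data leave room for. For 24 of the 28 tested members the 95% interval lay inside 1.5-fold in both directions, and for 26 of the 28 it lay inside 2-fold. All 10 homeostatic genes were among the 24, with 6 of the 7 shared myeloid genes, 4 of the 5 tested activation genes, 3 of the 4 tested complement genes and 1 of the 2 tested perivascular genes. The 4 members with wider intervals were Aif1, Spp1, Mrc1 and C3. These limits hold on the log2(FPKM + 1) scale, where the added 1 FPKM shrinks the differences of low genes. With 0.5 FPKM added, 22 of the 28 intervals lay inside 1.5-fold, and with 0.1 FPKM 18 did, with 24 inside 2-fold. At 0.1 FPKM the intervals of Fcrls (-1.004 to 0.472), Siglech (-0.59 to 0.21), Spi1 (-0.27 to 0.59), Cd14 (-0.22 to 0.60), Lgals3 (-0.43 to 0.76) and Pf4 (-0.74 to 0.009) also passed 1.5-fold. When each library was rescaled to TPM, the median of all genes moved to -0.13, because the morphine columns add up to more FPKM than the saline columns, and the median of the members moved with it to -0.19.

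**Figure D1:**
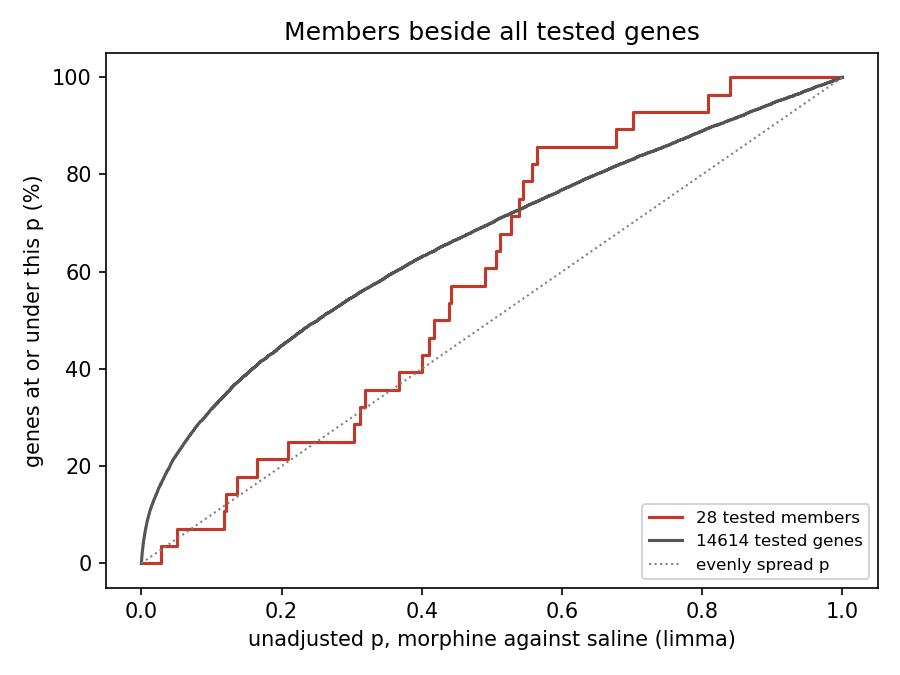
Share of genes (vertical axis, percent) at or under each unadjusted limma p (horizontal axis), for the 28 tested members (red steps) and all 14614 tested genes (grey line), with a dotted line for evenly spread p-values. Under the usual limit of 0.05 the members' line holds 1 gene (3.57%), while the line of all genes stands at 22.3%.

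The transcripts that mark resting microglia differed by less than 1.5-fold between the morphine and the saline cords on the log2(FPKM + 1) scale, intervals included, though Fcrls and Siglech did not keep to that limit with 0.1 FPKM added. All 10 were tested, none passed, and their differences ran from -0.19 to 0.06 on the log2 scale with a median of -0.10. The limit of 1.5-fold is for FPKM without rescaling. In TPM their median was -0.22. Gpr34 was then at -0.32 (SE 0.124), Siglech at -0.27 (SE 0.14) and Fcrls at -0.24 (SE 0.201), so the limit is less firm there. The most abundant of the 10 was P2ry12, a purinergic receptor for ADP that guides microglial processes toward damage. It stood at 23.6, 28.7 and 25.4 FPKM in morphine 1, 2 and 3, against 24.6, 27.4 and 29.2 FPKM in saline 1, 2 and 3. The groups overlapped throughout their range, and the difference was -0.06 (95% interval -0.29 to 0.16, limma adjusted p = 0.732). P2ry13, a related ADP receptor encoded next to P2ry12 on chromosome 3, was at 3.23, 4.41 and 3.93 FPKM with morphine and 3.72, 4.35 and 4.29 FPKM with saline, with a difference of -0.08 (adjusted p = 0.717).

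Cx3cr1, the receptor for the neuronal chemokine fractalkine, was the steadiest of the tested members. It measured 11.3, 12.3 and 12.2 FPKM in the morphine libraries and 11.3, 11.9 and 11.1 FPKM in the saline libraries, or 11.9 ± 0.536 against 11.4 ± 0.431 (SD, n = 3 each). Its spread within groups, 0.06 on the log2 scale, was lower than that of all but 10.9% of tested genes. The difference was 0.06, with an interval from -0.10 to 0.22 (limma adjusted p = 0.65), and it turned to -0.06 in TPM.

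Tmem119, a membrane protein used as a microglia-specific marker, was at 10.4, 12.2 and 10.8 FPKM after morphine and at 12.2, 13.04 and 12.0 FPKM after saline. Morphine 1 and 3 lay below all saline values, and morphine 2 lay inside their range. The difference was -0.14 (interval -0.33 to 0.05, adjusted p = 0.342). Its adjusted p of 0.0915, after rescaling to TPM, was the lowest that any member had in any of the 18 other settings. Csf1r, the survival receptor for CSF1 and IL-34, was at 12.7, 15.2 and 13.1 FPKM after morphine and 15.5, 16.1 and 12.99 FPKM after saline, and the groups overlapped (difference -0.11, adjusted p = 0.566).

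Gpr34, a receptor for lysophosphatidylserine, had the lowest difference of the homeostatic genes. Its levels were 5.49, 5.68 and 6.81 FPKM in morphine 1, 2 and 3 and 6.06, 7.15 and 7.79 FPKM in saline 1, 2 and 3, with 1 morphine library inside the saline range (difference -0.19, interval -0.46 to 0.08, adjusted p = 0.367). Siglech, a sialic acid-binding lectin, measured 4.17, 2.71 and 2.99 FPKM with morphine and 3.73, 3.50 and 3.89 FPKM with saline, so the morphine values reached both above and below the saline ones. Sall1, a transcription factor that keeps microglial identity, averaged 7.83 ± 1.26 FPKM with morphine and 8.06 ± 0.406 FPKM with saline (SD, n = 3 each). Selplg, the P-selectin ligand, averaged 12.9 ± 0.833 and 12.8 ± 0.576 FPKM (morphine and saline). Fcrls, an Fc receptor-like scavenger receptor of mouse microglia, was the rarest of the 10, at 0.63 to 1.41 FPKM after morphine and 1.06 to 1.47 FPKM after saline, which is 26 to 64 estimated fragments per library. The adjusted p of these 4 genes lay between 0.559 and 0.921.

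**Figure D2:**
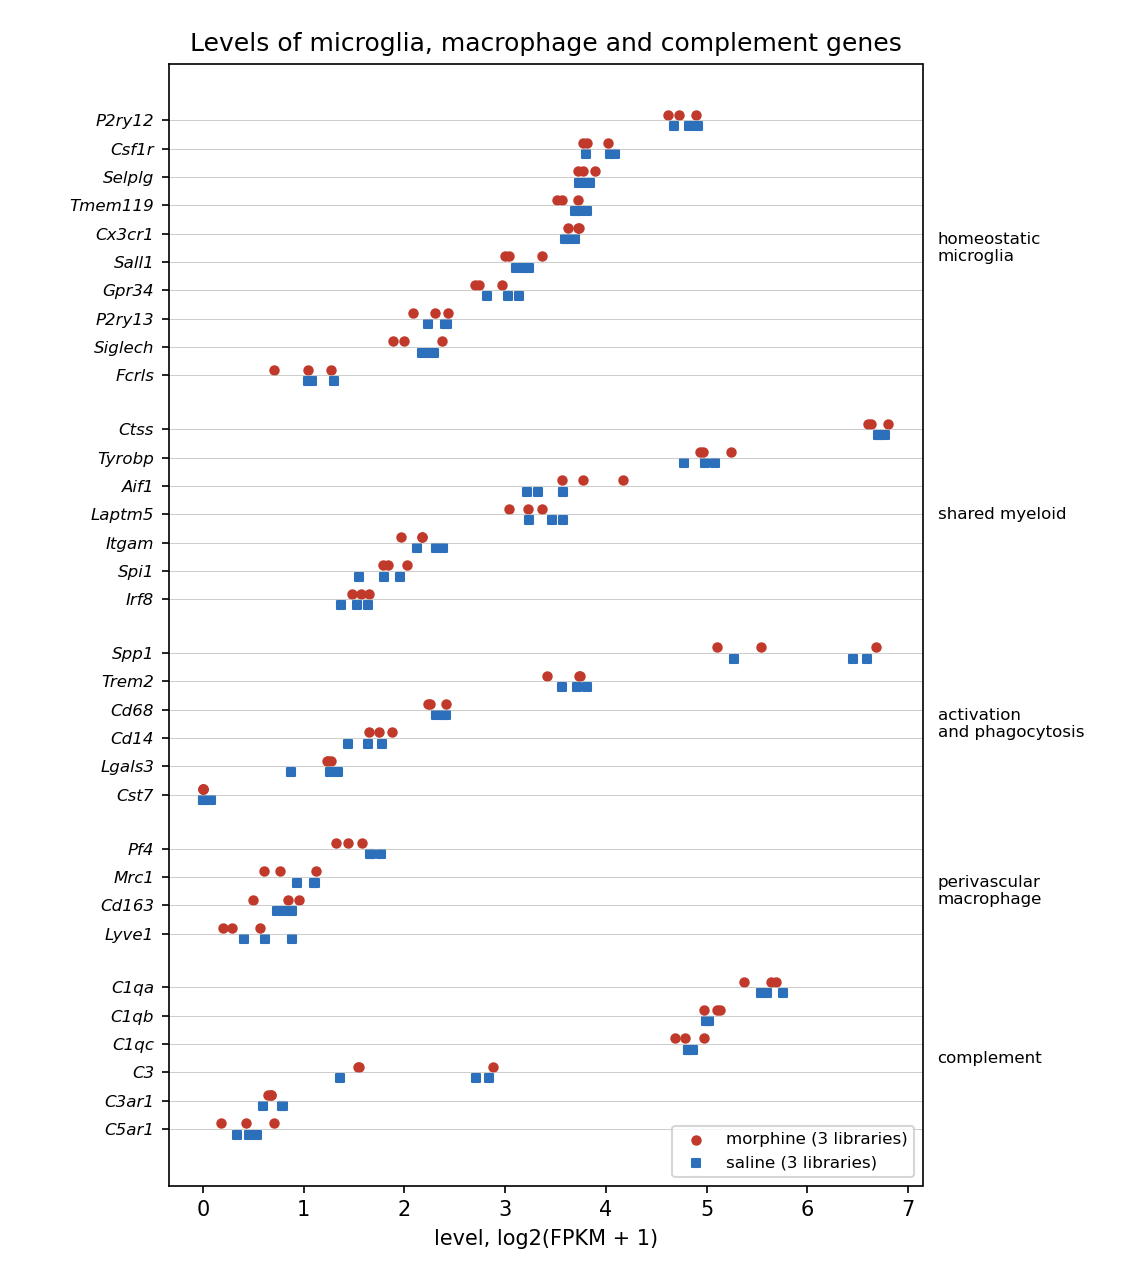
Level of each of the 33 genes on the log2(FPKM + 1) scale (horizontal axis), grouped by role and ordered by mean level within a role, with 1 point per library (red circles, morphine, upper row of each gene, blue squares, saline, lower row). The red and blue points interleave for nearly all genes, Spp1 and C3 spread widely within both groups, and Pf4 has its red points below its blue ones.

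Among the 7 genes shared by microglia and other myeloid cells none passed, and Aif1 had the largest difference, 0.46 on the log2 scale. Aif1 encodes the actin-bundling protein IBA1, whose staining is the usual sign of microglia in tissue sections. It was at 12.6, 17.0 and 10.8 FPKM in morphine 1, 2 and 3, against 8.32, 9.05 and 10.9 FPKM in saline 1, 2 and 3. Morphine 1 and 2 lay above all saline values, while morphine 3 lay just under saline 3. The means were 13.5 ± 3.20 and 9.43 ± 1.35 FPKM (morphine and saline, SD, n = 3 each), a ratio of 1.43, and the log2 difference was 0.46 (SE 0.167, interval 0.07 to 0.85). With limma's adjusted p at 0.171, Aif1 did not pass. Over the other settings its difference ran from 0.29, without morphine 2, to 0.60, without morphine 3, and its adjusted p from 0.137 to 0.387. Aif1 is the only member with an interval that leaves out 0, and 22.3% of all tested genes had an unadjusted p under 0.05.

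The other 6 shared myeloid genes had differences between -0.21 and 0.12, of which Spi1 (0.12), Tyrobp (0.10) and Irf8 (0.05) were above 0 like Aif1, and no test of a difference from Aif1 was made. Ctss, the lysosomal and secreted protease cathepsin S that frees fractalkine from neurons in the rodent dorsal horn, was the most abundant of the 33 genes. It was at 98.0, 111 and 96.5 FPKM with morphine and 104, 108 and 103 FPKM with saline (difference -0.05, interval -0.21 to 0.11, adjusted p = 0.706). Tyrobp, the DAP12 adaptor through which TREM2 and other receptors signal, was at 29.6, 36.8 and 30.2 FPKM with morphine and 30.6, 32.9 and 26.4 FPKM with saline. In both genes morphine 2 held the highest value of all 6 libraries and the groups overlapped.

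Itgam, the CD11b chain of complement receptor 3, was at 2.91, 3.50 and 3.51 FPKM after morphine and 3.36, 3.96 and 4.20 FPKM after saline (difference -0.17, adjusted p = 0.404). The row used is the gene at chromosome 7, 128062640 to 128118491, on the plus strand. The second row with this symbol has the GENCODE name Gm49368 and shares exons with it on the same strand. It read 0.38, 0.43 and 0 FPKM with morphine and 0 FPKM in all 3 saline libraries, so how fragments were divided between the pair is uncertain. Laptm5, a lysosomal membrane protein of blood and immune cells, had the lowest difference of the role at -0.21 (7.20, 9.32 and 8.35 FPKM against 10.9, 10.0 and 8.40 FPKM in morphine and saline, adjusted p = 0.347). The transcription factors were low: Spi1, which encodes PU.1, averaged 2.70 ± 0.323 FPKM with morphine and 2.43 ± 0.487 FPKM with saline, and Irf8 averaged 1.96 ± 0.175 and 1.86 ± 0.271 FPKM (SD, n = 3 each). Their adjusted p-values were 0.643 and 0.828.

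Of the 6 genes that microglia raise on activation or phagocytosis, 5 were tested and none passed, with a median difference of -0.07. Trem2, the lipid receptor that drives the disease-associated state, was at 9.65, 12.3 and 12.4 FPKM in the morphine libraries and 13.1, 12.1 and 10.9 FPKM in the saline libraries (difference -0.07, interval -0.34 to 0.20, adjusted p = 0.758). Cd68, a lysosomal glycoprotein of phagocytes, was at 3.77, 4.33 and 3.71 FPKM against 3.98, 4.32 and 4.25 FPKM in saline (difference -0.07, adjusted p = 0.668). In both genes the morphine and saline ranges overlapped.

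Cd14, the co-receptor that presents bacterial lipopolysaccharide to TLR4, had 2.67, 2.35 and 2.14 FPKM with morphine and 2.12, 2.43 and 1.72 FPKM with saline (difference 0.14, interval -0.15 to 0.42, adjusted p = 0.552). Lgals3, galectin-3, was at 1.41, 1.36 and 1.34 FPKM with morphine and 1.39, 1.53 and 0.83 FPKM with saline, and only saline 3 stood apart (difference 0.09, adjusted p = 0.753). Cst7, cystatin F, is among the genes most raised in disease-associated microglia of mouse models. Here it was listed at 0 in all 3 morphine libraries and in saline 1 and 2, and at 0.06 FPKM in saline 3, which corresponds to 1 estimated fragment. At this depth Cst7 was thus not detectable above a single fragment in any library, and no fold is given for it.

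**Figure D3:**
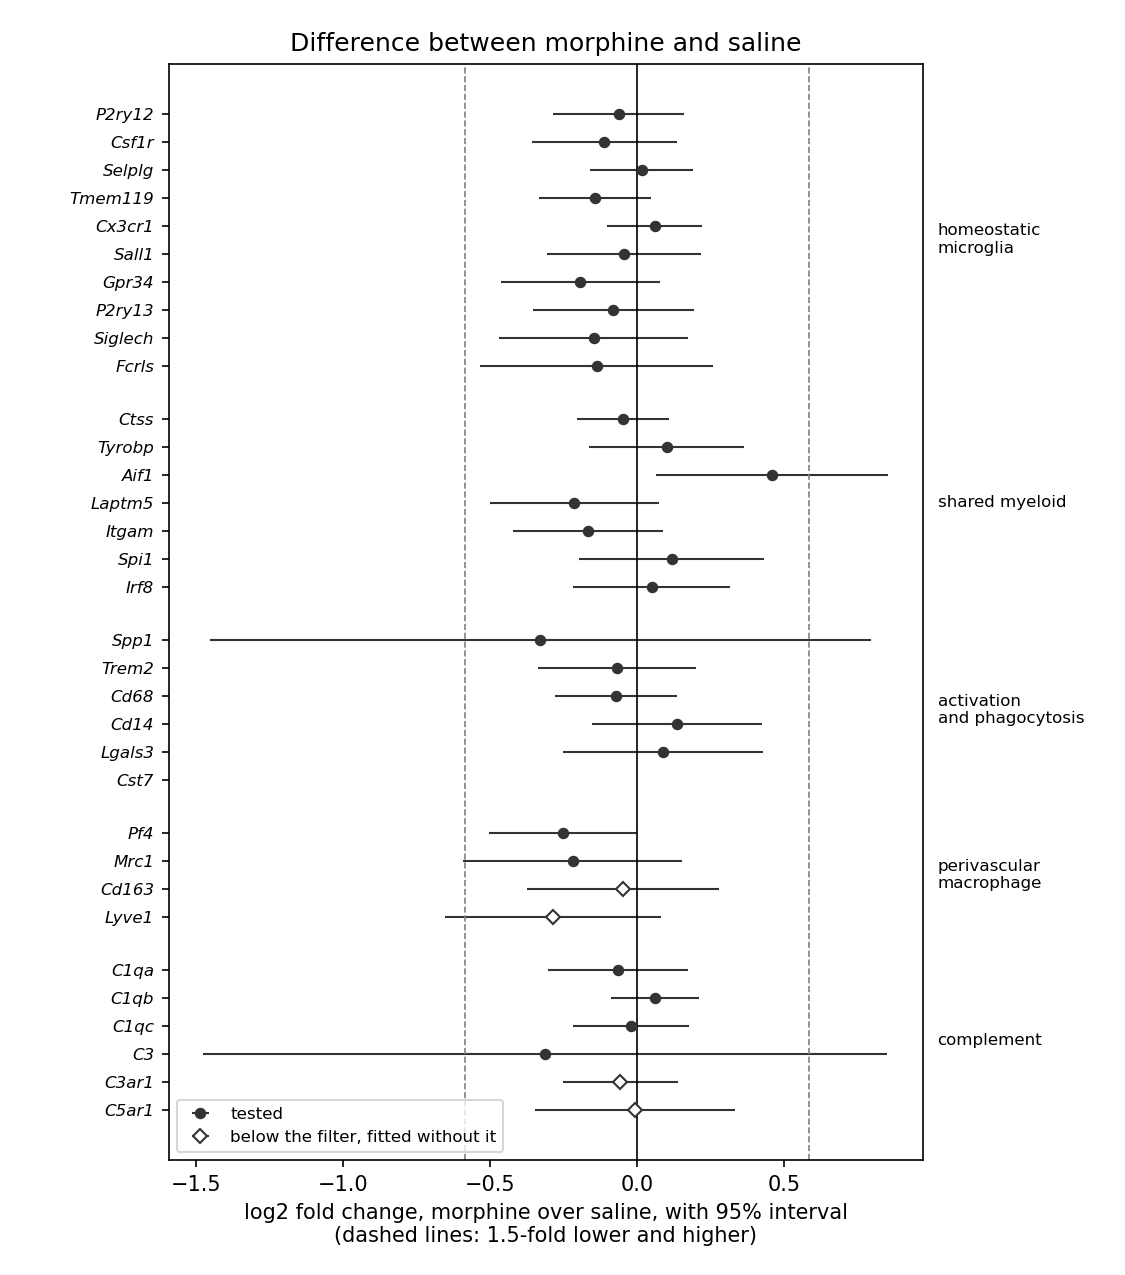
Difference between morphine and saline on the log2(FPKM + 1) scale (horizontal axis) with its 95% interval for each of the 33 genes except Cst7, whose row is empty, grouped by role; filled circles were tested, open diamonds were below the filter and fitted without it, and dashed lines mark 1.5-fold. The intervals of the homeostatic genes lie between -0.54 and 0.26, Aif1 lies to the right of 0, and those of Spp1 and C3 reach beyond both dashed lines.

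Spp1 in the activation list and C3 in the complement list varied widely between libraries of the same group. Spp1, osteopontin, is a phosphoprotein of activated microglia that mouse motor neurons also make. It was at 45.6, 102 and 33.3 FPKM in morphine 1, 2 and 3, against 95.7, 86.5 and 37.6 FPKM in saline 1, 2 and 3. Morphine 2, saline 1 and saline 2 were high, the other 3 libraries were low, and each group held both kinds. C3, the central complement component, had the same arrangement at 1.93, 6.34 and 1.90 FPKM with morphine and 5.53, 6.16 and 1.56 FPKM with saline. The log2 differences were -0.33 for Spp1 (interval -1.45 to 0.79, adjusted p = 0.721) and -0.31 for C3 (interval -1.48 to 0.85, adjusted p = 0.745).

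The spread of both genes within groups, 0.77 for Spp1 and 0.80 for C3 on the log2 scale, was above that of 99.0% and 99.1% of all tested genes, while the median member had 0.145 and the median gene 0.12. Motor neuron markers moved with them, and so, over a narrower range, did markers of glia and of endothelium. The mean log2 level of 7 astrocyte markers was 6.78, 7.01 and 6.77 in morphine 1, 2 and 3 and 6.99, 6.99 and 6.76 in saline 1, 2 and 3, and that of 6 oligodendrocyte markers was 10.27, 10.62 and 10.18 with morphine and 10.51, 10.54 and 10.02 with saline, with morphine 2, saline 1 and saline 2 again the highest. The 6 endothelial markers had means of 3.32, 3.68 and 3.43 with morphine and 3.70, 3.74 and 3.66 with saline. Their highest libraries were the same, with saline 3 close behind. The parts of glial, endothelial and nerve root RNA in the values of Spp1 and C3 were not tested. Slc5a7, which takes up choline at cholinergic terminals, stood at 4.62, 18.3 and 1.86 FPKM with morphine and 22.9, 20.4 and 3.70 FPKM with saline, while Chodl, a gene of fast motor units, stood at 8.89, 25.1 and 2.83 FPKM with morphine and 31.5, 29.5 and 4.99 FPKM with saline. Over the 7 motor neuron markers, of which 6 were tested, none passed, none was at 0 in all libraries, and the summed level ran from 15.9 to 134 FPKM in the morphine libraries and from 24.8 to 148 FPKM in the saline libraries. With the mean log2 level of these markers as a covariate, the difference was 0.12 for Spp1 (SE 0.07, against 0.476 without the covariate, adjusted p = 0.294) and 0.13 for C3 (SE 0.181, against 0.493, adjusted p = 0.663). The covariate cannot tell motor neuron RNA from RNA of other tissue that was high in the same libraries. Without morphine 2 the differences were -0.78 for Spp1 and -0.76 for C3, and without saline 3 they were -0.75 and -0.79. Spp1 shares exon bases with the same-strand gene Gm42793, so its level carries that uncertainty.

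**Figure D4:**
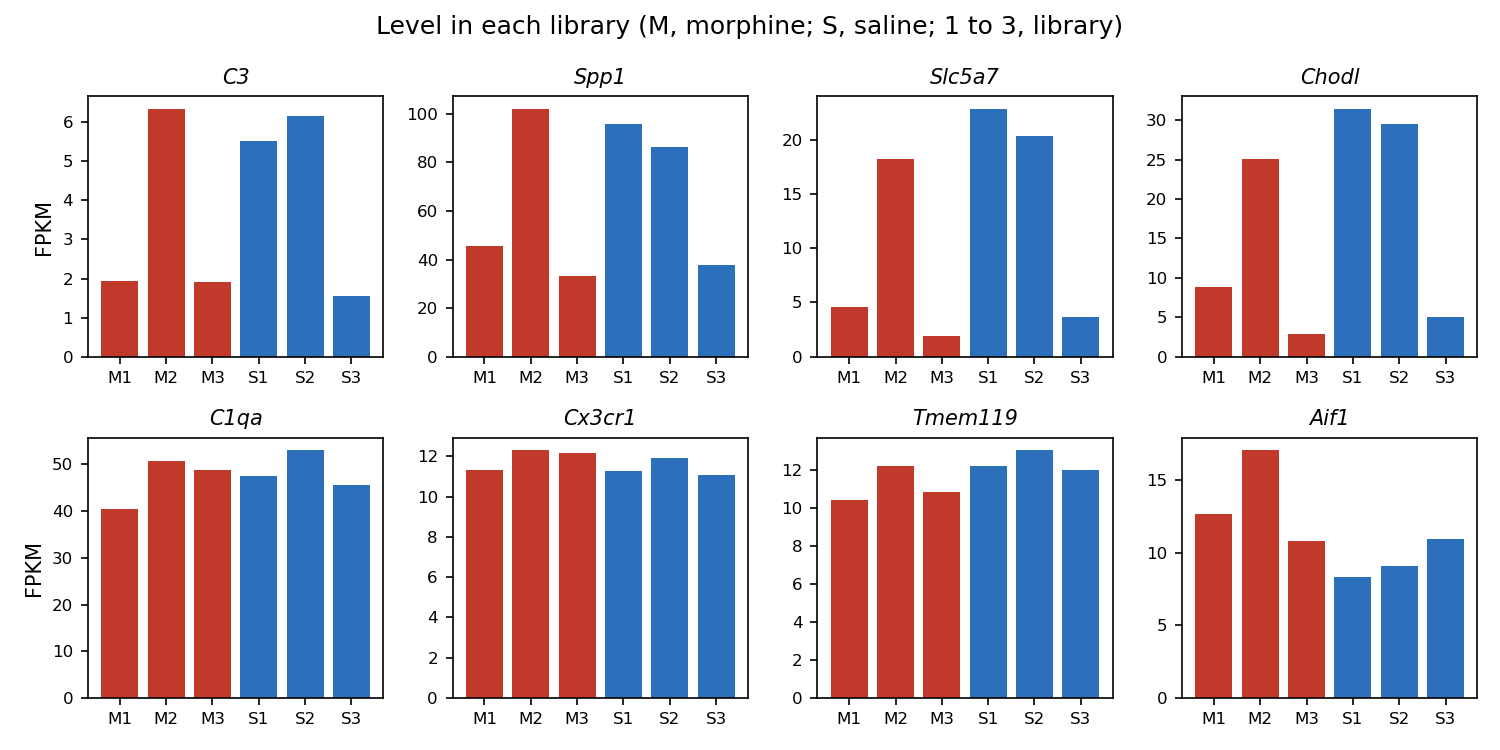
FPKM in each library (M1 to M3, morphine, red, S1 to S3, saline, blue) of C3 and Spp1, of the motor neuron markers Slc5a7 and Chodl, and of C1qa, Cx3cr1, Tmem119 and Aif1. C3, Spp1, Slc5a7 and Chodl are high in M2, S1 and S2 and low in M1, M3 and S3. C1qa (40.4 to 53.1 FPKM), Tmem119 (10.4 to 13.04 FPKM) and Cx3cr1 (11.1 to 12.3 FPKM) vary less across the bars.

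The C1q chains, which share a cluster on chromosome 4 and together form the C1q molecule, were abundant. C1qa stood at 40.4, 50.8 and 48.8 FPKM with morphine and 47.6, 53.1 and 45.6 FPKM with saline (difference -0.07, interval -0.30 to 0.17, adjusted p = 0.74). C1qb was at 30.5, 34.2 and 33.4 FPKM with morphine and 31.0, 31.3 and 31.6 FPKM with saline (difference 0.06, interval -0.09 to 0.21, adjusted p = 0.608). C1qc was at 24.7, 30.6 and 26.5 FPKM with morphine and 27.3, 28.2 and 27.3 FPKM with saline (difference -0.02, interval -0.22 to 0.18, adjusted p = 0.903). Morphine 1 was the lowest library for all 3 chains, and their groups overlapped. Relative to C1qb, C1qa was present at ratios of 1.33, 1.48 and 1.46 in the morphine libraries and 1.54, 1.70 and 1.44 in the saline libraries, and C1qc at 0.811, 0.893 and 0.793 against 0.881, 0.902 and 0.863. These ratios are per transcript length, and the interleaved values gave no separation of the groups for either pair.

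The receptors for the complement fragments C3a and C5a were low. C3ar1 was at 0.60, 0.60 and 0.56 FPKM with morphine and 0.51, 0.73 and 0.72 FPKM with saline, from 42 to 78 estimated fragments, and C5ar1 was at 0.13, 0.63 and 0.34 FPKM with morphine and 0.45, 0.37 and 0.26 FPKM with saline, from 6 to 26 fragments. Fitted without the filter, their differences were -0.06 and -0.007 (limma adjusted p = 0.771 and 0.989), in a fit that called 0.0286% of its 28021 genes.

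Perivascular macrophage markers were low in all libraries, and Pf4 and Mrc1, the tested pair, did not pass. Pf4, the chemokine platelet factor 4, which border macrophages as well as platelets make, was at 1.71, 1.98 and 1.49 FPKM in morphine 1, 2 and 3, against 2.40, 2.15 and 2.17 FPKM in saline 1, 2 and 3. All 3 morphine values lay below all 3 saline values, as they did for 15.7% of all tested genes. The means were 1.73 ± 0.245 and 2.24 ± 0.139 FPKM (morphine and saline, SD, n = 3 each), the ratio was 0.771, and the log2 difference was -0.25 (interval -0.51 to 0.001, limma adjusted p = 0.226). The short Pf4 transcript rested on 10 to 21 estimated fragments per library.

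Mrc1, the mannose receptor CD206, was at 0.70, 1.17 and 0.52 FPKM with morphine and 0.91, 1.14 and 1.16 FPKM with saline (difference -0.22, interval -0.59 to 0.15, adjusted p = 0.457). Cd163, the scavenger receptor for haemoglobin and haptoglobin, was at 0.80, 0.93 and 0.41 FPKM against 0.77, 0.84 and 0.66 FPKM in saline, and Lyve1, a hyaluronan receptor, was at 0.22, 0.48 and 0.15 FPKM against 0.85, 0.53 and 0.33 FPKM in saline. Without the filter their differences were -0.05 and -0.29 (adjusted p = 0.892 and 0.46). Morphine 3 was the lowest of the 6 libraries for all 4 perivascular genes. Leaving it out moved Mrc1 to -0.11, Cd163 to 0.09, Lyve1 to -0.21 and Pf4 to -0.19.

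Markers of other border tissue were low in the same library. Dcn, a proteoglycan of fibroblasts that was chosen after its values were seen, was at 10.6, 20.9 and 5.02 FPKM with morphine and 20.5, 19.7 and 15.1 FPKM with saline, and Igf2, a growth factor of the meninges, at 23.9, 41.6 and 6.55 FPKM with morphine and 58.4, 31.1 and 58.0 FPKM with saline. Over the 7 meningeal fibroblast markers, of which 6 were tested, none passed and none was at 0 in all libraries. Of the 6 tested, 5 had differences below 0. The exception was Ptgds, the most abundant of the 7, which averaged 924 FPKM with morphine and 792 FPKM with saline. Its difference was 0.20 (limma adjusted p = 0.654), though it too was lowest in morphine 3, at 635 FPKM. The summed level of the 7 ran from 652 to 1240 FPKM in the morphine libraries and from 747 to 1070 FPKM in the saline libraries. Most of that sum was Ptgds, so it says little about the other markers. Of the 5 tested globin and red cell genes 1 passed, against 1.51% of all tested genes. Hbb-bt, a beta globin, fell to 23.7, 27.9 and 32.2 FPKM with morphine, against 58.9, 56.0 and 82.8 FPKM with saline (difference -1.20, adjusted p = 0.0453). It passed in 11 of the 18 other settings. It did not pass without the filter (adjusted p = 0.0992), with no intensity trend (0.0611), or without morphine 1 (0.152), morphine 3 (0.12), saline 1 (0.146), saline 2 (0.133) or saline 3 (0.0925). The summed level of the 5 genes was 421 to 595 FPKM in the morphine libraries and 757 to 1080 FPKM in the saline libraries. Near-identical globin copies make the split of fragments between them uncertain. The part of meningeal tissue and blood in the perivascular values was not tested.

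**Figure D5:**
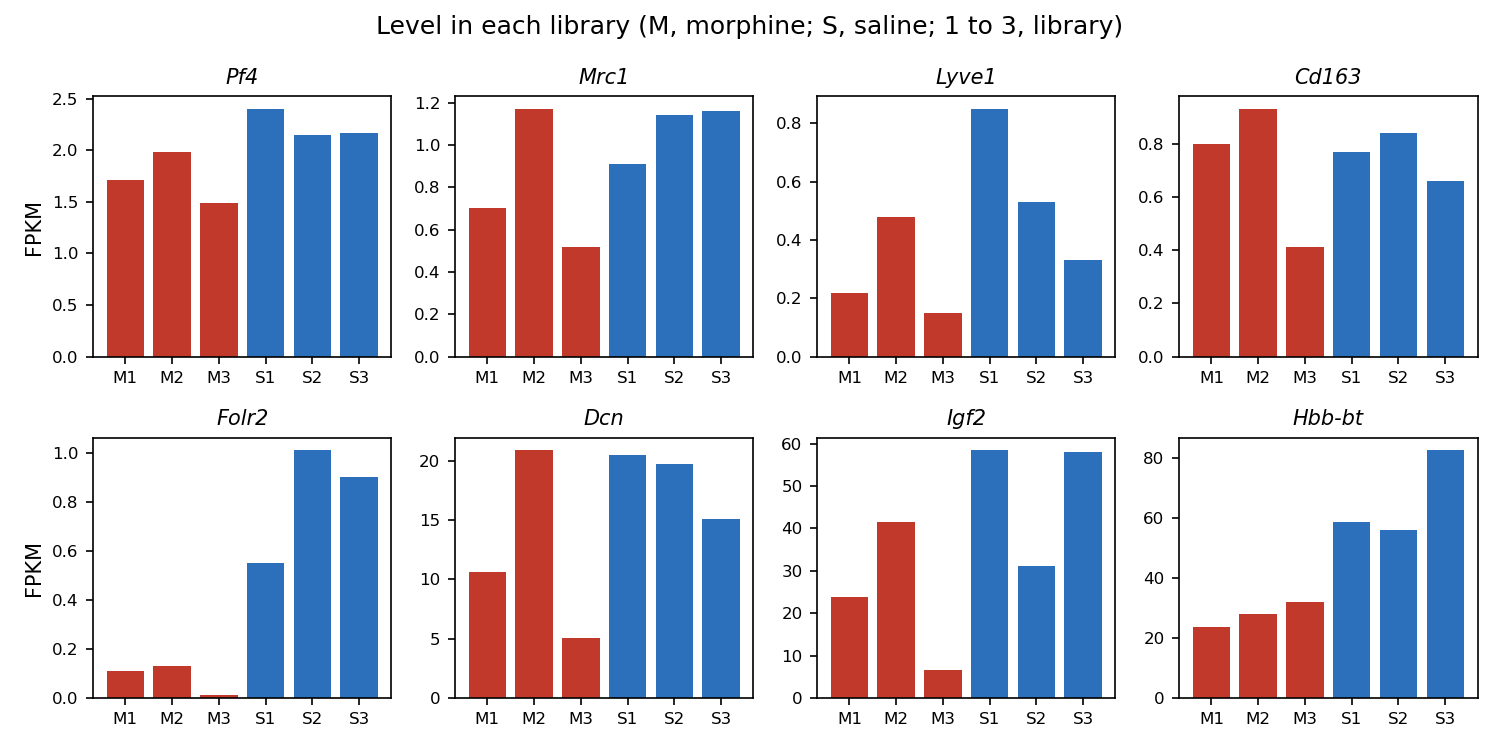
FPKM in each library (M1 to M3, morphine, red, S1 to S3, saline, blue) of the perivascular macrophage genes Pf4, Mrc1, Lyve1 and Cd163, of the border macrophage gene Folr2, of the meningeal markers Dcn and Igf2 and of the globin Hbb-bt. M3 is the lowest bar for Pf4, Mrc1, Lyve1, Cd163, Folr2, Dcn and Igf2, and the Folr2 bars of M1 to M3 (0.01 to 0.13 FPKM) are below those of S1 to S3 (0.55 to 1.01 FPKM).

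Of 14 other perivascular and border macrophage genes, 6 were tested, none passed, and all 6 had differences below 0, with a median of -0.28. The smallest p-values belonged to Colec12, a scavenger receptor of the collectin family (1.89 ± 0.656 against 2.86 ± 0.541 FPKM in morphine and saline, SD, n = 3 each, difference -0.43, adjusted p = 0.225), and Dab2, an endocytic adaptor (2.92 ± 0.473 against 3.69 ± 0.242 FPKM, difference -0.27, adjusted p = 0.233). Folr2, folate receptor beta, was singled out after its values were seen. It was at 0.11, 0.13 and 0.01 FPKM in the morphine libraries and 0.55, 1.01 and 0.90 FPKM in the saline libraries, which is 0 to 26 estimated fragments over the 6. Fitted without the filter its difference was -0.74 (SE 0.111, interval -1.01 to -0.47, limma adjusted p = 0.0992), and it did not pass. The other untested genes of the list went both ways in that fit. Clec10a (0.25), Clec4n (0.09) and Cd209f (0.003) were above 0. F13a1 (-0.24), Ms4a7 (-0.20), Mgl2 (-0.20) and Siglec1 (-0.04) were below it. Folr2 shares exon bases with a gene on the opposite strand, and the use of strand by the counting step is unknown here.

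Of 27 other homeostatic genes 24 were tested and none passed, with a median of -0.07. Crybb1, a crystallin expressed by mouse microglia, was higher in every morphine library (3.47, 4.14 and 3.74 FPKM) than in the saline libraries (2.88, 2.55 and 2.61 FPKM), with a difference of 0.38 (adjusted p = 0.0809). Golm1, a Golgi membrane protein, was lower in every morphine library (2.40, 2.33 and 2.14 FPKM) than in the saline libraries (3.56, 3.06 and 3.08 FPKM), with a difference of -0.36 (adjusted p = 0.0863). Neither passed, and the pair had opposite signs within 1 list.

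Of 27 other genes of disease-associated microglia 22 were tested and none passed, with a median of -0.08. The lowest p-values were those of Ctsb, the lysosomal protease cathepsin B, at 181 ± 7.82 FPKM with morphine and 208 ± 2.32 FPKM with saline (SD, n = 3 each, difference -0.20, adjusted p = 0.083), and Fth1, ferritin heavy chain, at 6230 ± 735 and 4970 ± 579 FPKM (difference 0.33, adjusted p = 0.157). Both are expressed by many cell types of the cord. Clec7a, dectin-1, and Itgax, CD11c, whose appearance defines the activated state in mouse disease models, did not exceed 0.45 FPKM in any library, and both were named here after their values were seen.

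Of 30 other complement genes 19 were tested and none passed, with a median of -0.11. C1qbp, a mitochondrial protein first found as a C1q-binding protein, was at 118, 97.9 and 109 FPKM with morphine and 87.2, 87.2 and 85.4 FPKM with saline (difference 0.32, adjusted p = 0.0712). Cr1l, the rodent membrane regulator Crry that limits C3 activation, was at 9.04, 11.8 and 9.41 FPKM with morphine and 14.1, 12.3 and 13.8 FPKM with saline (difference -0.39, adjusted p = 0.1). The groups did not overlap for either gene, in opposite directions. C4b, the classical pathway component C4, was chosen after its values were seen: it stood at 24.0, 32.95 and 18.5 FPKM with morphine and 14.7, 18.3 and 17.2 FPKM with saline, with no overlap between the groups (difference 0.53, adjusted p = 0.174). C4a, a near-identical copy of C4b, averaged 4.16 FPKM with morphine and 2.25 FPKM with saline (difference 0.669, limma adjusted p = 0.129). Its groups overlapped. C2, another gene of this list, went the other way without overlap. It averaged 1.17 FPKM with morphine and 1.67 FPKM with saline (difference -0.302, limma adjusted p = 0.181). C4a and C2 were also chosen after their values were seen. Fragments of C4a and C4b may have been divided between them, and this was not tested.

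Library by library, the members were not spread evenly. Morphine 2 was the highest of the 6 libraries for 14 of the 28 tested members, against 13% of all tested genes, and the highest of the 3 morphine libraries for 20 of the 28, against 32.3% of all genes. Morphine 1 was the lowest library for 13 of the 28, against 20.2% of all genes, and morphine 3 was the highest for none, against 17.2%. The summed level of the 10 homeostatic genes was 92.4, 104 and 96.5 FPKM in morphine 1, 2 and 3 and 98.5, 105 and 105 FPKM in saline 1, 2 and 3. The summed level of the 6 complement genes was 98.3, 123 and 112 FPKM in the morphine libraries and 112, 120 and 107 FPKM in the saline libraries. In both roles morphine 2 held the highest sum of the morphine group, and the ranges of the groups overlapped.

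Blood cells can also carry shared myeloid transcripts. Of 6 monocyte markers 2 were tested and none passed, and the summed level was 3.61 to 6.55 FPKM with morphine and 3.72 to 5.37 FPKM with saline. Ifitm6, an interferon-induced membrane protein of monocytes, was at 1.26, 2.04 and 1.22 FPKM with morphine and 0.71, 0.85 and 0.32 FPKM with saline (difference 0.62, adjusted p = 0.111). Ly6c2, a surface antigen of inflammatory monocytes, had the opposite sign, at 2.86, 3.86 and 1.54 FPKM with morphine and 3.22, 4.14 and 3.07 FPKM with saline (difference -0.30, adjusted p = 0.495). Of 8 neutrophil markers 3 were tested, and the summed level was 5.94 to 10.2 FPKM with morphine and 8.99 to 12.4 FPKM with saline. S100a8, a calcium-binding protein of neutrophils, was at 0.37, 1.26 and 0.61 FPKM with morphine and 1.76, 2.74 and 1.75 FPKM with saline (difference -0.84, adjusted p = 0.0845). S100a9 differed by -0.70 and Mmp9 by 0.05 (limma adjusted p = 0.21 and 0.935). None of 8 T and NK cell markers reached the level for testing, and their summed level was at most 0.81 FPKM with morphine and 1.48 FPKM with saline. Of 5 B cell markers 1 was tested, and the summed level was 3.75 to 5.33 FPKM with morphine and 5.27 to 6.64 FPKM with saline. The part of blood cells in the values of the shared myeloid genes was not tested.

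Markers of the other resident cells did not pass either. All 6 endothelial markers were tested, with a median of -0.22. Pecam1, an adhesion molecule of endothelium that some myeloid cells also carry, was at 2.69, 3.85 and 3.21 FPKM with morphine and 5.09, 5.22 and 5.29 FPKM with saline (difference -0.55, adjusted p = 0.0589). Flt1 differed by -0.36 (limma adjusted p = 0.145). The most abundant endothelial markers, Ly6c1 and Cldn5, differed by -0.07 and 0.11 (limma adjusted p = 0.718 and 0.593). Of the 6, 5 had differences below 0. The 7 astrocyte markers had a median of -0.08, the 6 oligodendrocyte markers 0.02 and the 9 neuron markers -0.009. Slc6a5 had the smallest p of the neuron markers, of which 5 had differences below 0. It was at 33.6, 37.0 and 41.3 FPKM with morphine and 57.8, 47.8 and 62.1 FPKM with saline (difference -0.57, limma adjusted p = 0.0574). The most abundant neuron marker, Snap25, differed by 0.02 (limma adjusted p = 0.89). Of the 7 astrocyte markers 4 had differences below 0. The smallest p-values were those of Aqp4 (difference -0.33, limma adjusted p = 0.134) and Slc1a2 (difference -0.16, limma adjusted p = 0.136). The most abundant, S100b, differed by 0.13 (limma adjusted p = 0.682). Gfap, which astrocytes raise when they react, was at 455, 711 and 445 FPKM with morphine and 594, 579 and 386 FPKM with saline (difference 0.04, adjusted p = 0.934). Like 14 of the 28 members, Gfap had its highest value in morphine 2.

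Some loci limit how exactly a level can be read. P2ry12, Csf1r and Cx3cr1 overlap exons of Med12l, Hmgxb3 and Gm33858 on the opposite strand, so their levels are uncertain to the extent that fragments of the partner were counted with them.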

How the data were processed

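RNA from the lumbar cord of mice (3 morphine and 3 saline libraries, grouped by the treatment label) was analysed from 1 table of FPKM values, which the authors deposited with 2 decimals. Per the submitters' processing notes, the tools were bcl2fastq 2.19.0, Trimmomatic, STAR and RSEM, on mm10. For the other versions, the annotation and strand use, the sources used here give nothing.

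The values were taken as log2(FPKM + 1), without rescaling, and the groups were compared by a two-sided test in limma 3.58.1 under R 4.3.3, with variances moderated along an intensity trend. P-values were adjusted by Benjamini-Hochberg over the 14614 genes that had 1 FPKM or more in 3 or more of 6 libraries, with a threshold of 0.05. A fold change on this scale understates that of low genes. Members below the filter came from a fit to all 28021 genes above 0. The labels do not say that libraries came from separate animals, so p-values measure the spread between these samples, which may be technical or a spread of pools.

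Depth was estimated from the steps of low FPKM values: 77.0% to 79.7% of the values of up to 6 fragments, in genes with 300 to 1500 nt of transcript, lay within 0.05 of a whole fragment, against 12.7% to 15.7% for evenly spread values. Fragment numbers are therefore estimates. Both the model and the depth estimate were run on simulated data, which lacked the composition differences between these libraries. Such runs check the calculation and not its fit to these data. GENCODE M21 (same build) gave coordinates and overlaps, and promoters from RefSeq. Python 3.11.15, pandas 2.3.3, NumPy 2.4.6, SciPy 1.17.1 and matplotlib 3.10.9 were used.

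The 33 members and all other lists were chosen with earlier results of these data known. Named genes are the members, up to 4 genes that passed from each other list or its 2 with the smallest p, and 2 abundant genes of each other cell type. Not every gene that this rule picks is given in the text. Other names are said to be chosen after their values were seen, or serve as markers at 0. The other settings were pseudocounts of 0.1 and 0.5 FPKM, other filters, scalings and variance models, removal of a length trend, a replicate block, a motor neuron covariate and each library left out.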

Additional observations from a re-analysis of the deposited data

How the results depend on the processing

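No member passed the test in any of the 18 other settings, and of 572 values of members under them 542 kept their sign and 30 turned it. The members' median moved to -0.19 in TPM and ran from -0.13 to 0.01 without single libraries. The numbers over all genes moved far more than the members did. Against 138 higher and 82 lower genes, there were 6 and 2 with no filter, 518 and 144 after median centring, 14 and 22 with no intensity trend, 225 and 124 with robust variances, 14 and 19 with the length trend removed, and 514 and 384 with the motor neuron covariate. TPM gave 101 higher and 853 lower genes, quantile normalization 47 higher, and a mean of at least 5 FPKM 211 higher. Leaving out 1 library gave 0 to 531 higher and 1 to 274 lower genes, with the highest numbers without morphine 2. With the replicate number as a block, 17 genes were higher and 7 lower. Deviations from the group mean correlated between same-numbered libraries with r = -0.129, 0.161 and 0.295, and between other pairs with r from -0.341 to 0.238. With 3 libraries in a group these values cannot decide whether the numbers pair the samples. The block changed no call among the members. The cause of these moves was not tested.

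Signs turned for members whose difference is small beside its error. In TPM these were Cx3cr1 (-0.061), Selplg (-0.106), Irf8 (-0.039), Tyrobp (-0.025) and C1qb (-0.064). With the length trend removed they were Tyrobp (-0.066), C1qb (-0.073) and Sall1 (0.004), and after median centring C1qc (0.007). With the motor neuron covariate they were Selplg (-0.012), Spp1 (0.124), Cd163 (0.037), C1qc (0.016), C3 (0.134) and C5ar1 (0.071). Without single libraries P2ry13 ran from -0.163 to 0.015, Fcrls from -0.27 to 0.012, Sall1 from -0.159 to 0.021, Selplg from -0.031 to 0.053, Irf8 from -0.024 to 0.113, Trem2 from -0.133 to 0.039, Lgals3 from -0.053 to 0.18, Spp1 from -0.784 to 0.009, Cd163 from -0.14 to 0.087, C1qa from -0.129 to 0.033, C1qc from -0.103 to 0.044 and C5ar1 from -0.142 to 0.122. The shorter core GAGGAA was in 58.3% of member promoters and 28.3% of all. Pf4, Cst7 and C5ar1 rest on at most 26 fragments per library and are limited by depth.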

Other observations

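Ligands of the member receptors were also measured. Of 10, 9 were tested and none passed, with a median of 0.02. Il34, the ligand of CSF1R that neurons make, was at 23.9, 22.3 and 28.0 FPKM in the morphine libraries and 19.2, 19.9 and 22.3 FPKM in the saline libraries (difference 0.26, limma adjusted p = 0.192). Cx3cl1, fractalkine, the ligand of CX3CR1, was at 58.1, 50.9 and 65.0 FPKM with morphine and 63.1, 61.7 and 73.8 FPKM with saline (difference -0.19, adjusted p = 0.341). The groups overlapped for Cx3cl1 and touched for Il34.

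The Fc receptors and the signalling proteins behind DAP12 were likewise close between the groups. Of 15, 9 were tested, none passed, and the median was 0.02. Fcer1g, the gamma chain that Fc receptors share, was at 5.49, 8.17 and 6.41 FPKM with morphine and 5.14, 5.83 and 5.58 FPKM with saline (difference 0.23, adjusted p = 0.361), and morphine 2 was again its highest library. Blnk, an adaptor downstream of SYK, was at 0.69, 0.90 and 1.03 FPKM with morphine and 1.13, 1.09 and 1.10 FPKM with saline (difference -0.17, adjusted p = 0.42).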
